A study of Homo sapiens with 2 samples.

Results

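Lone E2F1 sites are the peaks that stand almost alone in their stretch of the genome. Chromosomes 1 to 22 were divided into bins of 1 Mb, each peak was given to the bin of its midpoint, and a peak was taken as lone where its bin held only 1 or 2 peaks of the list. The members were thus chosen by the positions of the called peaks alone, with no use of their scores. This rule gave 558 peaks out of 28108 on chromosomes 1 to 22, or 1.99% of them, and out of 28734 in the whole list. They lay in 387 of the 2546 bins that held any peak, with 216 peaks alone in a bin and 342 peaks in 171 pairs. The median over all bins with a peak was 9 peaks. Another 263 bins between the first and the last peak of a chromosome held none.

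The list comes from 1 chromatin immunoprecipitation and sequencing (ChIP-seq) library of E2F1 in LNCaP-abl, a prostate cancer cell line derived from LNCaP that grows without androgen. The cells, at passages 61 to 64, grew in medium with charcoal-stripped serum and without phenol red, and spent the last 3 days before harvest in medium depleted of androgen. Antibodies against E2F1 from Santa Cruz Biotechnology and BD Pharmingen were used. The series also has an input of the same cells, made with no antibody, whose signal was not analysed here. No value below has a replicate, and read depth is unknown, since the list gives positions and scores but no reads.

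E2F1 is a transcription factor that binds DNA together with a DP partner and is held in check by the retinoblastoma protein until a cell commits to S phase. Its known targets are promoters of genes for DNA replication, nucleotide synthesis and the cell cycle, often in CpG islands, and many of these lie in gene-rich parts of the genome. Large gene-poor stretches, often late-replicating and closed chromatin, are known to hold few such promoters. Which genes or sequences lie at the lone sites was not analysed here, since no genome or annotation of the build hg19 was used. All coordinates are hg19 and 1-based.

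Lone sites were weaker on the authors' score than sites with more company. The score is the value given to each peak in the deposited list, taken as higher for stronger peaks, on a scale not given in the sources used here. Lone peaks had a median score of 13.4 (95% interval of the median 11.9 to 15.03), with quartiles of 7.75 and 31.01 and a range from 3.11 to 297. The 27550 peaks in all other bins had a median of 23.8 (23.2 to 24.3), with quartiles of 10.1 and 61.3. The median of the lone peaks was thus 0.56 times that of the others. These values are a description without a test, because the same peak calls chose the lone sites and gave their scores. Intervals cover counting error only and treat peaks as independent, which neighbouring peaks are not.

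Strong sites, taken here as those with a score of 100 or more, were rarer among lone peaks but present. A score of 100 or more was reached by 35 of the 558 lone peaks, or 6.27% (exact 95% interval 4.41 to 8.62%), beside 12.1% over all peaks on chromosomes 1 to 22. In the other bins 3371 peaks reached it, or 12.2% (11.9 to 12.6%). The share among lone peaks was 0.51 times that of the others. The ratio was 0.88 when the bins were counted again on the top 50% of peaks by score alone, which gave 903 lone peaks. At the weak end, 216 lone peaks scored under 10, or 38.7% (34.6 to 42.9%), against 24.8% (24.2 to 25.3%) in the other bins. Scores from 10 to 30 were held by 35.3% of lone peaks and 31.05% of the others. From 30 to 100 the shares were 19.7% and 32.0%. Lone peaks thus took larger shares of both classes under 30 and smaller shares of both above it, and the cumulative plot of score and width shows the same course.

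**Figure D1:**
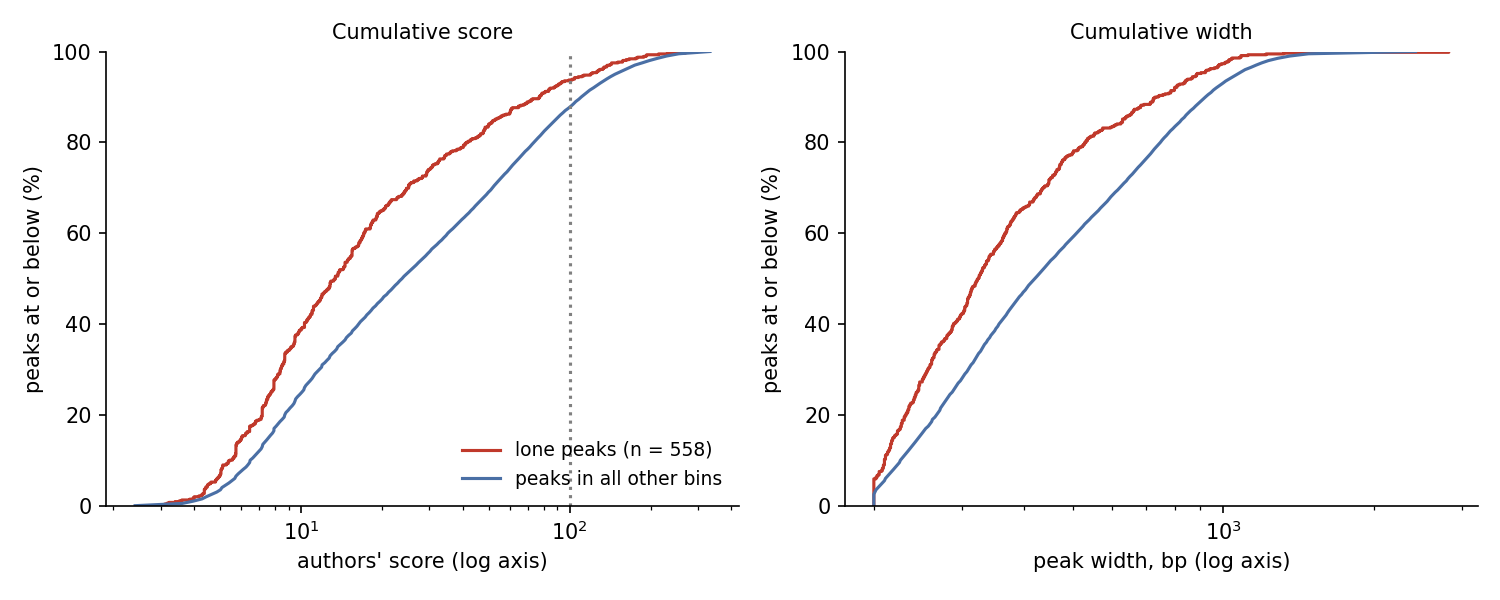
Cumulative share of peaks (vertical axes, %) at or below each authors' score (left) and width in bp (right), both on log axes, for the 558 lone peaks (red) and the 27550 peaks in all other bins (blue). The red curves lie above the blue ones over most of both ranges, with medians of 13.4 and 23.8 in score and 324 and 420 bp in width. The dotted line marks a score of 100.

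The lone sites were also narrower. Their median width was 323.5 bp (309 to 339 bp), with quartiles of 244 and 471 bp, against 420 bp (415 to 424 bp) and quartiles of 287 and 683 bp in the other bins. The narrowest width in the list, 200 bp, was held by 33 lone peaks, or 5.91% (4.11 to 8.21%), and by 2.93% (2.73 to 3.13%) of the others. Width and score came from the same calls and moved together within each set, with a Spearman's rho across peaks of 0.76 for the lone peaks and 0.80 for the others. When the other peaks were weighted to the scores of the lone ones, in 20 score bins, their median width was 333 bp. The difference of 96.5 bp in median width thus shrank to 9.5 bp at matched scores. With bins counted on the top 50% of peaks by score, the median of lone peaks was 42.0 bp below that of the others.

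Within classes of score, lone peaks had lower median widths than the others in each of the 4 classes, by amounts that varied. Among peaks scoring under 10 the median width was 242 bp for lone peaks and 245 bp for the others. Between 10 and 30 the medians were 330 and 346 bp. Lone peaks from 30 to 100 had a median of 533 bp (498 to 629 bp), below the 643 bp (636 to 651 bp) of the others, and these intervals did not overlap. At 100 or more the medians were 731 bp (608 to 818 bp) and 765 bp (757 to 774 bp), with overlapping intervals. Within that class, the 7 lone peaks scoring from 100 to 120 had a median of 554 bp against 745 bp, and the 14 from 120 to 150 had 708 bp against 764 bp. The 14 lone peaks at 150 or more had 785.5 bp against 779 bp. The classes are broad, and scores within a class differ between the sets. In the plot of width against score most lone peaks fall within or near the band of the other bins.

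**Figure D2:**
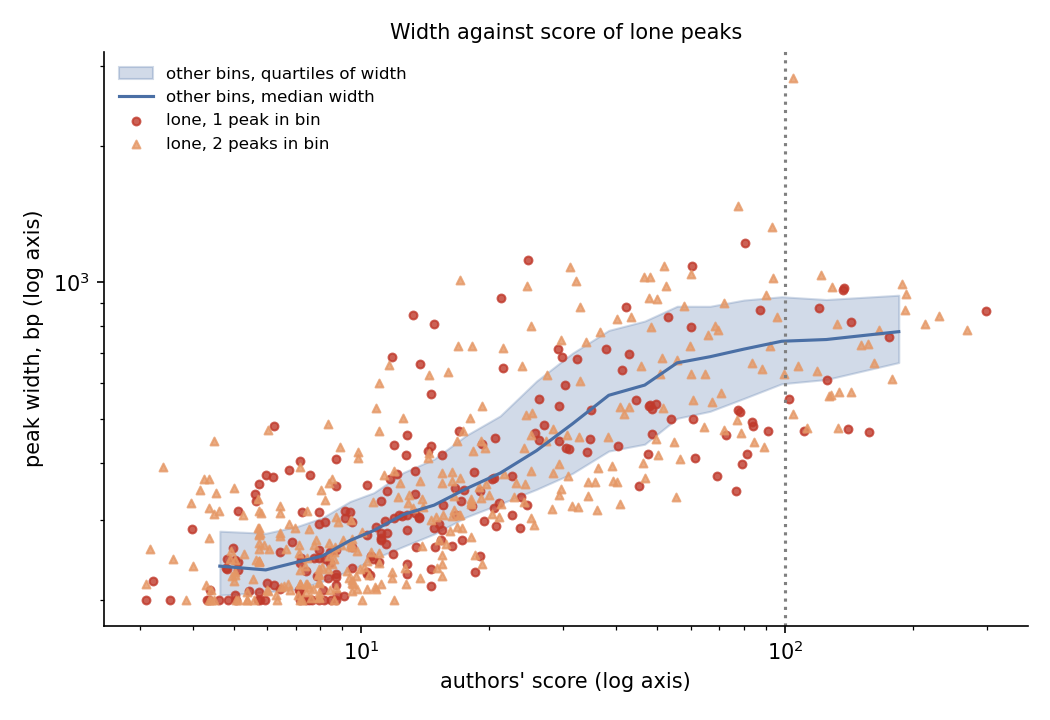
Width in bp (vertical, log axis) against the authors' score (horizontal, log axis) of lone peaks alone in their bin (red circles, n = 216) and in pairs (orange triangles, n = 342), over the median (blue line) and quartiles (blue band) of peaks in all other bins in 20 score bins. Lone peaks follow the rise of the band, and 1 point, at a score of 104 and 2828 bp, stands far above it.

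Score rose with the number of peaks in a bin well beyond the limit that defines lone sites. Peaks alone in a bin had a median of 12.8, those in pairs 13.9, and those in bins of 3, just outside the rule, 14.6 (12.3 to 17.0). Bins of 4 had a median of 14.6, bins of 5 to 7 had 17.6, and bins of 8 to 15 had 20.4. The median reached 26.0 in bins of 16 to 30 and 34.0 in bins of 31 or more. The share scoring 100 or more was 5.09% (2.57 to 8.93%) for single peaks, 7.02% (4.55 to 10.3%) in pairs and 7.11% (4.81 to 10.05%) in bins of 3. It was 10.8% in bins of 4, 10.1% in bins of 5 to 7 and 10.8% in bins of 8 to 15. Bins of 16 to 30 had 12.7%, and bins of 31 or more 15.8% (14.8 to 16.8%). No step set bins of 2 apart from bins of 3. For the median score the limit of 2 peaks cuts a gradual course, as the plot by peaks per bin shows. The share was higher in bins of 4 than in bins of 3, then nearly level up to bins of 8 to 15.

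**Figure D3:**
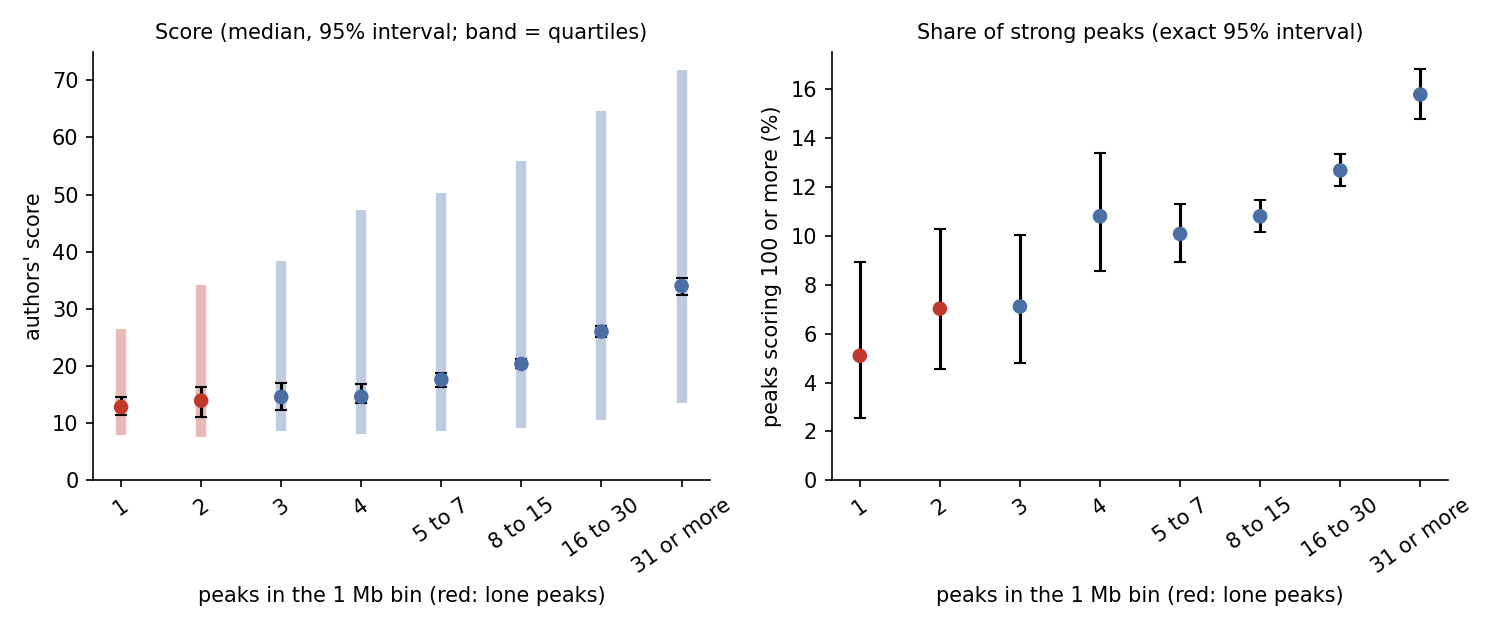
The authors' score (left; points are medians, black bars their 95% intervals and coloured bands the quartiles) and the share of peaks scoring 100 or more in % (right; bars are exact 95% intervals), by the number of peaks in the 1 Mb bin. Lone peaks are red. The median climbs from 12.8 for single peaks to 34.0 in bins of 31 or more. The share goes from 5.09 to 15.8%, but not upward at every step.

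Single peaks and pairs differed little as sets. Median widths were 312.5 bp for single peaks and 327.5 bp for paired ones, and the intervals of their median scores, 11.4 to 14.6 and 11.1 to 16.4, overlapped. Within pairs the scores were uneven. The stronger peak of a pair had a median of 25.3 and the weaker 8.35, and the median ratio within a pair was 2.29. A ratio above 1 follows from the sorting, so its size is given as a description. The stronger peak was also the wider in 115 of 171 pairs. In 35 pairs both peaks scored under 10, and in 1 pair both scored 100 or more.

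Some paired peaks were neighbours in the narrow sense, so that lone means sparse in its megabase and not always solitary. The distance between the edges of 2 paired peaks was 112 bp at the least, 201821 bp at the median and 916264 bp at the most. In 15 pairs it was at most 10 kb, in 44 from there to 100 kb, and in 112 more. The stronger peak had a median score of 50.6 in the 15 closest pairs, 40.5 in the middle class and 22.6 in the widest-spaced. These medians are given without intervals, and a link between score and spacing was not tested. Whether close pairs are distinct binding sites was not tested. Single peaks had no neighbour within 10 kb (0 of 216). The rule nearly fixes this, since a neighbour of a single peak must lie across a bin boundary. Within 100 kb, 10 of the single peaks had such a neighbour.

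Distance to the nearest other peak of the list had a median of 276280 bp over all lone peaks and 15376 bp in the other bins, as the rule demands. For single peaks it was 582292 bp. A clear stretch of more than 1 Mb on both sides was found at 26 lone peaks on 11 chromosomes. Their median score was 15.3 (11.1 to 20.6). A score of 100 or more was held by 3 of the 26 (11.5%, exact interval 2.45 to 30.2%), beside 12.1% over all peaks on chromosomes 1 to 22. The 167 lone peaks with no other peak within 500 kb had a median of 12.8 (11.4 to 15.4), and 10 of them reached 100 (5.99%, 2.91 to 10.7%). Both intervals of the median hold the 13.4 of all lone peaks, to which these peaks belong.

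**Figure D4:**
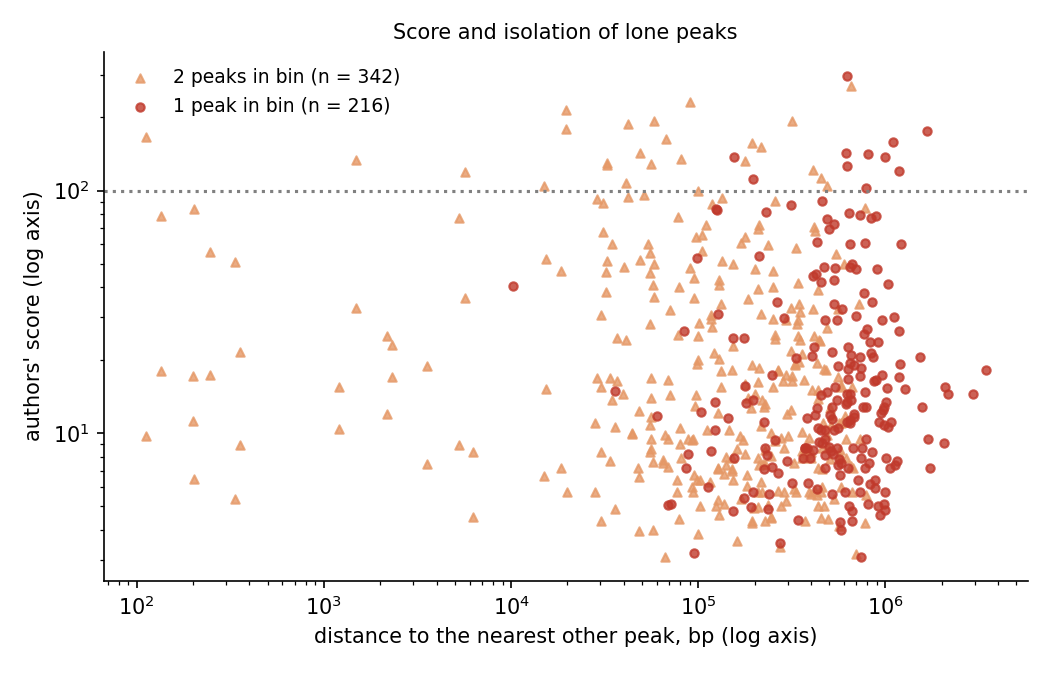
The authors' score (vertical, log axis) against the distance in bp to the nearest other peak (horizontal, log axis) of each lone peak, with single peaks as red circles (n = 216) and paired peaks as orange triangles (n = 342). Points above the dotted line at 100 are the 35 strong lone sites, whose distances run from 112 to 1659191 bp.

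The strong lone sites had nearly the same median score as strong sites elsewhere. The 35 had a median score of 138 (128 to 158), and the 3371 strong peaks of the other bins 136 (135 to 139). A score of 200 or more was held by 4 of the 35 (11.4%) and by 529 of the others (15.7%). The 35 were spread over 17 chromosomes and 34 bins. Chromosomes 5 and 7 held 5 each, chromosome 3 held 4, and chromosomes 11, 12, 16, 19 and 22 held none. Single peaks made up 11 of the 35 and paired peaks 24. A strong site was thus found in 8.79% of sparse bins (34 of 387, 6.16 to 12.1%). In the other bins, those with 3 peaks or more, the share was 64.1%, and in those with exactly 3 it was 19.9%. More peaks in a bin give more chances of a strong one.

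Most strong lone sites had a nearest neighbour scoring under 30, as did most strong peaks in the other bins. Such scores are common, since the median over all peaks on chromosomes 1 to 22 was 23.4, so most peaks there scored under 30. The nearest other peak scored under 30 at 22 of the 35 (62.9%), and its median score was 15.5. For strong peaks in the other bins the median was 28.1, and 52.0% had a nearest neighbour under 30. A nearest neighbour of 100 or more was found at 3 of the 35 strong lone sites (8.57%) and at 14.2% of the others. Over all peaks on chromosomes 1 to 22, 12.1% scored 100 or more. These shares are given without intervals, and whether they differ was not tested. At the 11 strong single peaks no nearest neighbour scored above 39.1.

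The strongest lone site was a single peak on chromosome 10, chr10:53459265-53460127, with a score of 297 and a width of 863 bp. It ranked 14 among the 28108 peaks. Its neighbours were 624515 bp to the left, with a score of 16.8, and 1184079 bp to the right, with a score of 7.65. The bin was sparse, but its 2 adjoining bins held 13 peaks together.

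The same chromosome held the next strongest, chr10:58120738-58121522, with a score of 270 and rank 80. It lay within a run of 5 neighbouring bins with at most 2 peaks each, and its nearest peak, 653910 bp away, scored 7.35. Neither of the 2 strongest lone sites had another peak within 500 kb.

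On chromosome 3, chr3:88198400-88199243 scored 231 and had a weaker peak (47.9) at 89837 bp. Another site of that chromosome, chr3:146262069-146262825, scored 176 in a far emptier place. Its neighbours lay 2491973 bp to the left and 1659191 bp to the right, with scores of 25.5 and 8.12, and its 2 adjoining bins held 1 peak. It was the most isolated of the 35 strong lone sites.

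Chromosome 9 held the only sparse bin with a pair of strong sites. The peak chr9:106856143-106856950 scored 214 and chr9:106835870-106836482 scored 179, with 19660 bp between them. To the left of the pair no peak was called for 2334799 bp, and to the right none for 652780 bp.

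A score of 194 was found at chr15:22833144-22834086, which had a paired peak of 36.6 at 57918 bp. The site chr4:82392553-82393420 scored 192, and its nearest peak, of 15.5, was 317157 bp away. On chromosome 7, chr7:108166158-108167149 scored 189 beside a peak of 93.7 at 42370 bp. The last of the 10 strongest, chr13:39611938-39612723, scored 166 and had a peak of 9.72 only 112 bp from its edge. The 10 sites were between 613 and 992 bp wide, and their nearest peaks lay from 112 to 1659191 bp away.

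Besides the site on chromosome 3 with a score of 176, the strong peaks with more than 1 Mb clear on both sides were both on chromosome 1. The peak chr1:83241062-83241530 scored 158 and was 469 bp wide, the narrowest of the 35, with gaps of 1096238 and 1107101 bp. The other, chr1:104067981-104068859, scored 120, with gaps of 2313542 and 1185301 bp. These were named after their values were seen. A width below 500 bp was found at 5 of the 35 strong lone sites (14.3%, 4.81 to 30.3%), against 5.81% (5.05 to 6.66%) of strong peaks elsewhere, and these intervals overlapped.

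The widest lone sites were different ones. The widest was chr6:58776506-58779333, with 2828 bp and a score of 104, which is also the widest peak of the whole list. No peak followed it for 3122732 bp, but unsequenced stretches were not marked here. How much of that gap could be mapped was not tested. The next 4 were chr3:143690121-143691597 (1477 bp, score 77.7), chr18:23670015-23671336 (1322 bp, score 93.0), chr1:186343796-186345014 (1219 bp, score 80.5) and chr21:48054931-48056051 (1121 bp, score 24.7). The last is the final peak of chromosome 21, so it borders the end of the called part of that chromosome. Only the first of the 5 widest reached a score of 100.

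The weakest lone sites were near the lowest scores of the list. A single peak, chr6:115682209-115682408, scored 3.11 and had the narrowest width of 200 bp. The sites chr5:51089848-51090063 and chr8:89909349-89909606 also had scores of 3.11 and 3.17, with widths of 216 and 258 bp. Their ranks ran from 28054 to 28077 among the 28108 peaks.

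The sites farthest from any other peak had modest scores. The most isolated was chr13:57309633-57309953, with a score of 18.3, 3528642 bp from the peak on its left and 3427682 bp from that on its right. The peak to its right scored 292. Also on chromosome 13, chr13:84660641-84661207 scored 14.6, and its nearest peak was 2943548 bp away. The third, chr9:40792028-40792241, also scored 14.6, with gaps of 2170751 and 3278334 bp. The latter 2 sites had exactly the same score, which is among the values that many peaks share. How much of the gaps around these sites could be mapped was not tested.

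Lone peaks were counted on all 22 chromosomes, from 5 each on chromosomes 17, 19 and 22 to 59 on chromosome 2. Chromosome 4 followed with 58 and chromosome 3 with 44. As a share of a chromosome's peaks they were commonest on chromosome 13, at 6.05% (exact 95% interval 4.09 to 8.58%), then on chromosome 18, at 5.81% (3.80 to 8.46%), and on chromosome 4, at 4.64% (3.54 to 5.96%). These are known as gene-poor chromosomes. The share was 0.308% on chromosome 17 and 0.327% on chromosome 19, both known as gene-rich. Sparse bins made up 26.9% of the bins with a peak on chromosome 18, 26.7% on 13 and 3.80% on 17. Both kinds of share depend on how densely peaks were called along a chromosome, which the rule itself uses. A link to gene density was not tested.

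The median score of lone peaks was below that of the other peaks on 21 of 22 chromosomes, and their median width was below on 19 of 22. The exception in score was chromosome 21, where 11 lone peaks had a median of 24.7 against 18.8. On chromosome 8 the medians were nearly equal, at 18.1 and 18.2. The widest gap in median was on chromosome 16, with 10.3 for 13 lone peaks and 30.2 for the others. With the other bins weighted to the lone peaks' spread over chromosomes, the median of the other peaks was 22.4 and the share scoring 100 or more 11.5%, close to the unweighted 23.8 and 12.2%.

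**Figure D5:**
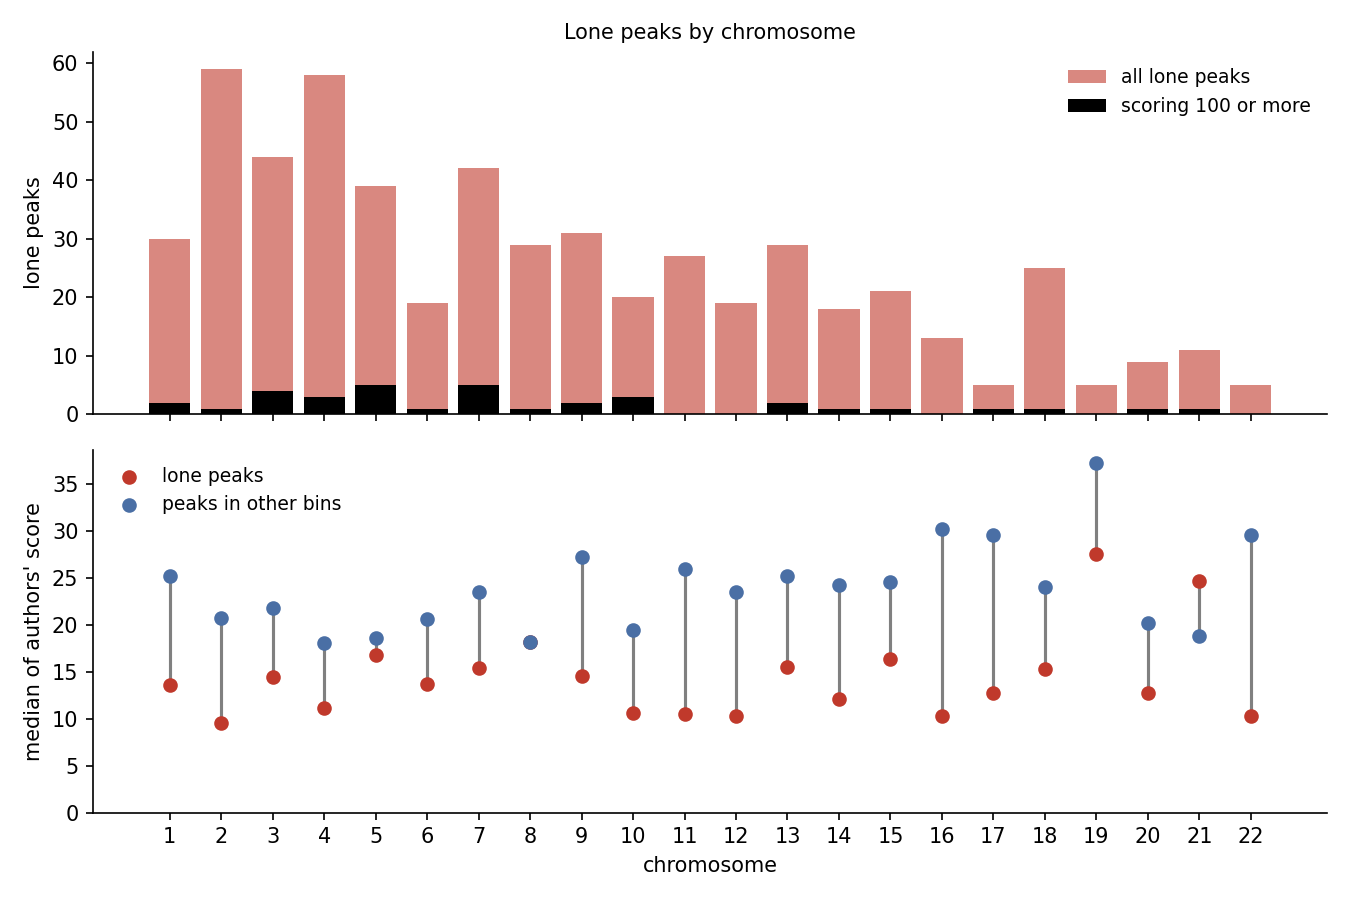
Lone peaks per chromosome (top; red bars all lone peaks, black bars those scoring 100 or more) and the median of the authors' score (bottom) of lone peaks (red) and of peaks in other bins (blue) on chromosomes 1 to 22. The red point lies below the blue one on 21 of 22 chromosomes, with chromosome 21 as the exception.

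Sparse bins often adjoined other sparse or empty bins. Bins beyond the first or last peak of a chromosome were not counted in these runs. Of the 558 lone peaks, 171 lay in a sparse bin with no counted sparse or empty bin beside it. Runs of 2 or 3 neighbouring bins, sparse or empty, held 256, and such runs of 4 or more held 131. The median scores of these groups, in that order, were 11.4 (9.84 to 13.9), 14.7 (12.5 to 17.1) and 13.8 (10.3 to 16.4), with overlapping intervals. The 2 bins beside a lone peak's bin held a median of 8 peaks together, against 26 for the other peaks, and 7 for the strong lone sites. The longest run was 21 bins on chromosome 9, from 45000001 to 66000000, and held 1 peak, with a score of 7.93. Unsequenced stretches of the assembly were not marked here, so how much of that run could be mapped was not tested.

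The run with the most peaks was chosen after its values were seen. It spanned 8 bins on chromosome 4, from 131000001 to 139000000, none of them empty, and held 11 peaks. Their median score was 15.1. All but one scored between 4.48 and 39.1, and the exception was chr4:133265403-133265877 with 141. That strong peak was 475 bp wide, and its neighbours, at 964726 and 804248 bp, scored 11.5 and 39.1. Strong and weak lone sites thus occurred in the same sparse stretch.

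A larger part of the lone peaks carried a score that many peaks share exactly. The list has 27 score values, from 4.37 to 27.2, that are each held by at least 25 peaks. Of the 386 lone peaks within that range, 106 held one of them (27.5%, exact 95% interval 23.1 to 32.2%), against 14.04% (13.5 to 14.6%) of the 14258 other peaks in the range. The share was 32.3% (25.1 to 40.2%) for single peaks, 24.1% (18.7 to 30.2%) for pairs and 21.4% (16.7 to 26.8%) in bins of 3. Without all peaks of such values, the median score of lone peaks was 16.1, still 11.4 below that of the other bins, and the ratio of shares scoring 100 or more was 0.59.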

How the data were processed

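The E2F1 library's peak list was used. The submitters' processing notes name CASAVA 1.6.0, MACS2 2.0.9, Bowtie and the build hg19. Their roles, the peak threshold and any use of the input are details not given in the sources used here. A per-peak score was deposited by the authors without a stated scale, and served only to describe and rank peaks within the list. Starts were taken as 0-based.

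Midpoints were binned at 1 Mb, and bins with 1 or 2 peaks gave the lone peaks. Python 3.11.15, pandas 2.3.3, numpy 2.4.6, scipy 1.17.1 and matplotlib 3.10.9 were used. Shares have exact Clopper-Pearson 95% intervals and medians have exact order-statistic 95% intervals. Spacing is in bp from edge to edge. The binning code was checked on simulated peaks placed away from bin edges, so its handling of edges was not checked. The rule for lone peaks and the comparisons were chosen with earlier results of these data known. Named sites were the 10 strongest, 5 widest, 3 weakest and 3 most isolated lone peaks, the leading chromosomes and the longest sparse run. No test was made, since the rule and the scores come from the same calls of 1 library. Planned gene and sequence results were not run. Peaks on X, Y and the mitochondrial chromosome were left out.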

Additional observations from a re-analysis of the deposited data

Results flagged for a closer look

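Sparse bins on X lie outside the comparisons above. They held 54 peaks, in 33 bins with 1 or 2 peaks, which singled them out as signal in data not otherwise used. Their median score was 25.7 (95% interval 19.2 to 35.4), against 29.0 (26.2 to 32.6) for the 528 other peaks of X, and these intervals overlapped. On chromosomes 1 to 22 the medians were 13.4 and 23.8. A score of 100 or more was reached by 2 of the 54 (3.70%, exact interval 0.452 to 12.7%) and by 8.52% (6.28 to 11.2%) of the other peaks of X. Score values shared exactly by at least 25 peaks were held by 24 of the 30 lone X peaks within their range (80.0%, 61.4 to 92.3%), and by 63.5% (57.2 to 69.4%) of the others. Whether the difference on X departs from that on chromosomes 1 to 22 was not tested.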

How the results depend on the processing

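Of 63 alternative values, 49 stayed within the interval of the value reported or, for counts, within 1.5 times of it, and none changed direction. For ratios and differences that interval was the one of the lone peaks, with the value of the other bins held fixed. The lone peaks, 558 as reported, numbered 216 with exactly 1 peak per bin, 966 with 1 to 3, 185 with no other peak within 500 kb and 903 when bins were counted on the top 50% of peaks by score. These counts follow from the construction of the sets. In the top 50% by score, lone peaks had a median score of 54.1, which was -7.21 relative to the other bins, and a median width of 620 bp, or -42.0 bp relative to them. There 21.6% of lone peaks scored 100 or more, 0.88 times the share in the other bins. Bins were counted again there, so these are not the peaks described above. The share of lone peaks scoring 50 or more was 16.1%. With no other peak within 500 kb the median width was 308 bp. Without repeated score values it was 348.5 bp and the median score 16.1. Over all alternatives the ratio of shares ran from 0.42 to 0.88 and the difference in median score from -11.4 to -7.21. Annotation and motif alternatives were not run, and leaving out a replicate was not possible. No paired analysis was possible because peaks of a single library were analysed. Limits set by depth are unknown, as no reads are listed.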
